A study of Mus musculus with 8 samples.

Results

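The genes of MHC class II antigen presentation were examined in mouse hippocampal microglia, the brain's own macrophages, after injection of the cytokine IL-33 (interleukin-33), with saline (PBS) injections for comparison. They are the 9 genes Cd74, H2-Aa, H2-Ab1, H2-Eb1, H2-DMa, H2-DMb1, H2-DMb2, Ciita and Rfx5, found by symbol among the 55471 rows of the deposited table, and each stood on 1 row. All 9 passed the minimum mean of 10 and were among the 13877 genes tested. The IL-33 group had 4 libraries (replicates 1 to 4) and the PBS group 4 (replicates 5 to 8), each taken 4 hours after the injection, with replicates 1, 2, 5 and 6 from females and 3, 4, 7 and 8 from males. All mice were labelled C57/Bl6 at postnatal day 30, the injection site and dose are not in the labels, and the sorted cells were low for CD45, positive for CD11b and negative for Ly-6C. The labels do not say whether each library came from its own animal, so the p-values measure the spread between libraries, which may be partly technical.

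MHC class II molecules are pairs of an α and a β chain that display peptides from endosomes to CD4 T cells. H2-Aa and H2-Ab1 encode the I-A pair and H2-Eb1 the β chain of I-E, whose α chain gene H2-Ea is defective in C57BL/6 mice. The invariant chain Cd74 plugs the groove of new class II molecules and guides them to endosomes, where H2-DM, a pair of H2-DMa with H2-DMb1 or H2-DMb2, exchanges its remnant for peptide. Transcription of these genes is raised by Ciita, a coactivator that does not itself bind DNA, and by the DNA-binding complex that holds Rfx5. Resting microglia are known for little class II, which inflammatory stimuli, interferon-γ above all, can raise.

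Rfx5 and the factor NF-Y bind neighbouring elements of class II promoters, the X box and the Y box. Promoter sequences from RefSeq (GRCm38.p6, 250 bases before to 50 after a start) were present for 6 of the 9 genes, with 7 starts. Shown are the 4 H2 complex genes with a Y box core from 150 to 41 bases before a start. That window is printed in the direction of transcription. They are shown because the means of the first pair were lower and those of the second pair higher after IL-33 than after PBS. Only H2-DMb1 passed the test given further on. H2-DMa, whose mean was also lower, is not shown: its Y box core lay 199 bases before a start, outside the window. Capitals mark matches to an X box core, AGNAACNG, and to a Y box core, GATTGG, searched on both strands.
H2-DMb1: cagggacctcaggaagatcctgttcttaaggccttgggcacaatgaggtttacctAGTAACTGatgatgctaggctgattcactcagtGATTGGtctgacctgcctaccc
H2-DMb2: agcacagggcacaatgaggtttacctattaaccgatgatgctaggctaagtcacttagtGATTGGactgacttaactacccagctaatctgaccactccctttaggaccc
H2-Aa: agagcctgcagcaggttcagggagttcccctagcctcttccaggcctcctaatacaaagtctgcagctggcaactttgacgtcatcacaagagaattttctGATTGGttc
H2-Eb1: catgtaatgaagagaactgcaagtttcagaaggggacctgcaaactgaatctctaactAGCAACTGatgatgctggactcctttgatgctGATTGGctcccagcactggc

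The stretches are chr17:34153041-34153150 on the plus strand for H2-DMb1, chr17:34145099-34145208 on the plus strand for H2-DMb2, chr17:34287864-34287973 on the minus strand for H2-Aa and chr17:34305717-34305826 on the plus strand for H2-Eb1. Of the 7 promoters 3 held both cores (H2-DMb1, H2-Eb1 and Rfx5) and 6 a Y box core. Of all 32851 promoters given by RefSeq, 17.4% held the X box core, 16.1% the Y box core and 2.68% both. The X box core began 95 bases before the start of H2-DMb1 and 92 before that of H2-Eb1. H2-DMb1 and H2-Eb1 thus hold both cores at like distances, and H2-DMb2 and H2-Aa hold the Y box core without the X box core as spelled here. A match or its absence describes these letters in this window only.

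The libraries held 16827343 to 20360164 reads after IL-33 and 19183115 to 21483352 after PBS. Genes with at least 10 reads numbered 7958 to 10736 after IL-33 and 10311 to 11902 after PBS (exact permutation p = 0.0857, two-sided, where 0.0286 is the smallest possible), and IL-33 replicates 3 and 4 had the fewest. Values are normalised read counts from the 3′ ends of transcripts, which do not scale with transcript length. They are given as mean ± SD (n = 4 per group). Log2 fold changes are IL-33 minus PBS in the mean of log2(value + 1). Where no tool is named, limma gave the adjusted p. The added 1 shrinks log2 differences of low genes, but the printed values are not lower bounds where libraries are at 0. H2-Ab1 had 3.63 in limma and 1.12 in edgeR, while H2-DMb2 had −3.68 and −7.16. Of the genes tested with a mean of 10 to 100, 95.7% had at least 1 library at 0, against 51.6% of those from 100 to 300 and 4.71% or fewer in the higher bands. Cd74 and H2-DMa had means over all libraries of 1242 and 1911, and H2-DMb1 one of 937, while the other 6 members lay under 300 and each had at least 1 library at 0.

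After IL-33 the invariant chain gene Cd74 rose and the peptide exchange gene H2-DMb1 fell. The other 7 members did not pass the test, in either direction. The 2 calls among 9 members stand beside 5.85% of all tested genes called (3.06% higher and 2.8% lower). By level, limma called 0.133% of genes with a mean of 10 to 100, 2.02% from 100 to 300, 4.28% from 300 to 1000 and 19.3% from 1000 up. The 6 members under 300, none of them called, thus stood where few genes were called, and Cd74 and H2-DMa in the highest band. The groups did not overlap for the same 2 members, against 13.7% of all tested genes, and these 2 had an unadjusted p under 0.05, against 19.4%. The median log2 fold change of the 9 members was 2.70 and that of all tested genes −0.40, with 5 members above 0 and 4 below. The median of the members was 1.12 in edgeR and 1.11 in DESeq2, with −0.08 and −0.09 for all genes, and the same split of 5 above 0 and 4 below. edgeR on the recovered reads called 1 member (Cd74, higher), against 5.46% of the genes (3.16% higher and 2.29% lower), and DESeq2 called 3 (Cd74 higher, H2-DMb1 and H2-DMb2 lower), against 14.3% of those it gave an adjusted p (6.77% higher and 7.52% lower). In these sorted cells a change in the share of cells that hold a transcript cannot be told apart from a change in its amount per cell.

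**Figure D1:**
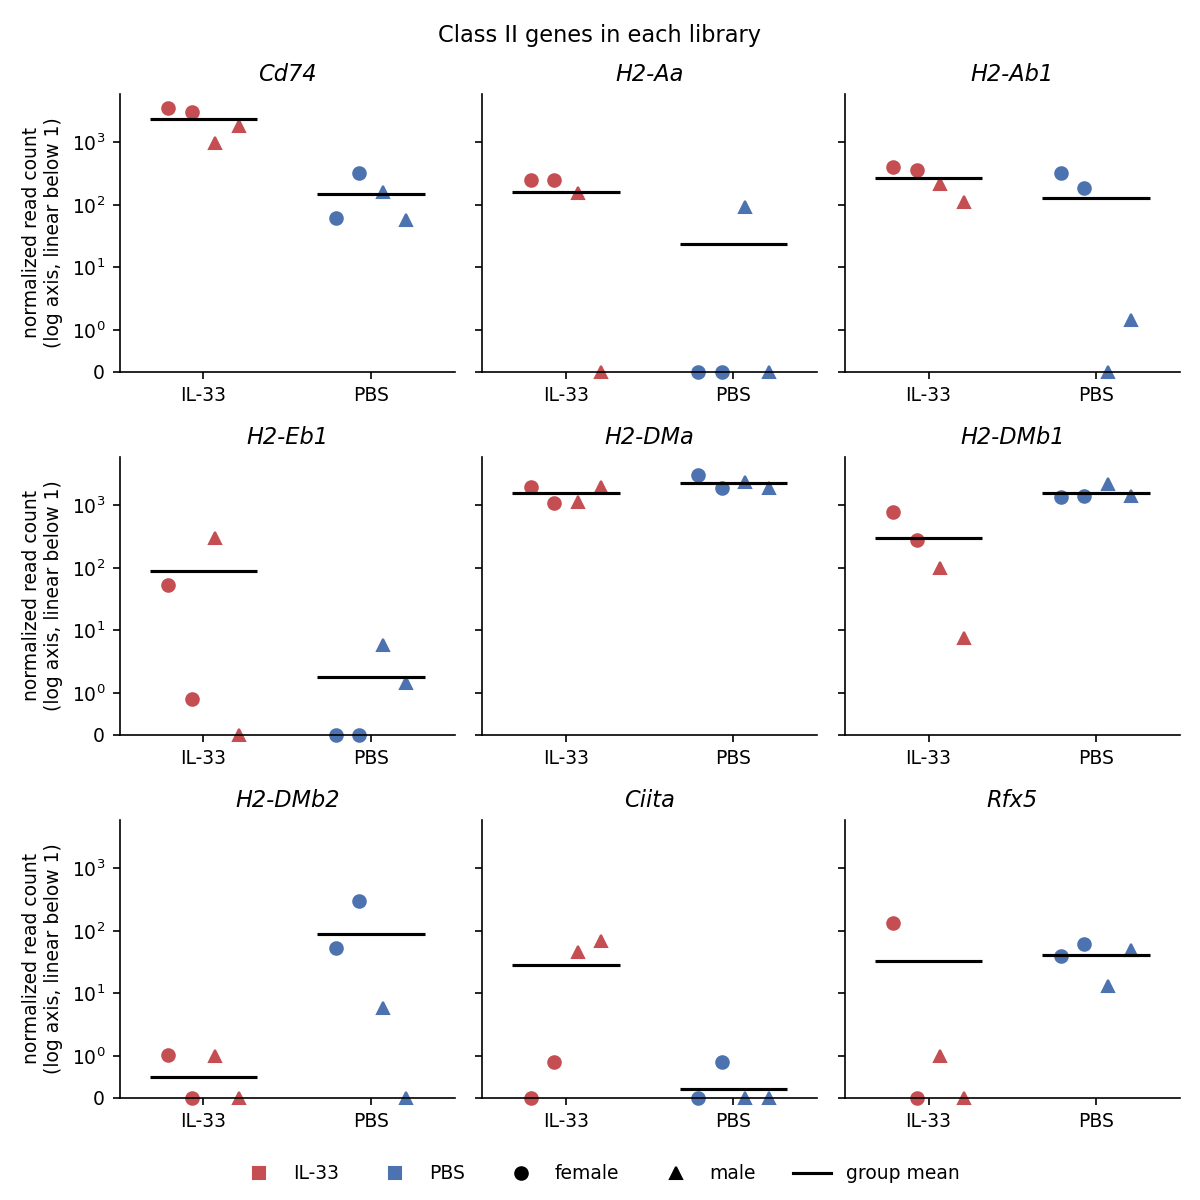
Normalised read counts of the 9 class II genes in each library (vertical log axis, linear below 1), IL-33 left of PBS, circles for females, triangles for males, bars for group means. The groups are separate for Cd74 (higher after IL-33) and H2-DMb1 (lower), and 6 genes have libraries at 0.

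The invariant chain showed the clearest change. Cd74 (chromosome 18, 60803848 to 60812652, plus strand, GRCm38 with GENCODE M21, as for all gene positions here) had 3497, 3061, 966 and 1816 in IL-33 libraries 1 to 4, against 61.0, 317, 161 and 56.4 in PBS libraries 5 to 8. The lowest IL-33 library lay above the highest PBS library. The means were 2335 ± 1158 after IL-33 and 149 ± 122 after PBS, a 15.7-fold difference of means (log2 fold change 4.16 ± 0.77 SE, 95% interval 2.55 to 5.78, adjusted p = 0.00198). By level among all genes of its library, Cd74 ranked 832, 909, 3282 and 2125 in the IL-33 libraries, and 9461, 6209, 7740 and 9516 in PBS libraries 5 to 8. The call held in all 21 alternatives, with log2 fold changes of 3.82 to 4.87, among them the fit without IL-33 replicates 3 and 4.

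Cd74 was higher after IL-33 than after PBS in both sexes, and its IL-33 level was higher in females. That level difference was not tested. The IL-33 males are the 2 libraries with the fewest genes, so sex and gene number cannot be told apart within that group. The females averaged 3279 after IL-33 and 189 after PBS, and the males 1391 after IL-33 and 109 after PBS. With 2 libraries each, the log2 fold changes were 4.54 in females and 3.78 in males (adjusted p = 0.0983 and 0.113 in limma, where 0.973% of genes were called within females and 1.89% within males). The difference of the effect between the sexes was 0.76 (limma interaction, adjusted p = 0.896). The annotated microRNA Mir5107, which lies within an exon of Cd74 on the same strand, had no reads in any library.

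The classical class II chains had far lower values than Cd74 after IL-33. H2-Ab1, the β chain of I-A (chromosome 17, 34257689 to 34269419, plus strand), had 401, 363, 213 and 109.8 in IL-33 libraries 1 to 4, against 321, 183, 0 and 1.46 in PBS libraries 5 to 8. The groups overlapped: both PBS females had levels within the IL-33 range, and the PBS males were at or near 0. The means were 272 ± 135 after IL-33 and 126 ± 156 after PBS (log2 fold change 3.63 ± 1.94 SE, 95% interval −0.43 to 7.70, adjusted p = 0.322). On the recovered reads the log2 fold change of H2-Ab1 was 1.12 in edgeR and 1.11 in DESeq2 (adjusted p = 0.806 and 0.753), near the 2.15-fold difference of means. With 2 libraries each, limma gave log2 fold changes of 0.65 in females and 6.62 in males (adjusted p = 0.955 and 0.111). The difference of the effect between the sexes was −5.96 (limma interaction, unadjusted p = 0.0428, adjusted p = 0.783), so it did not pass.

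H2-Aa, the α chain of I-A (chromosome 17, 34282744 to 34287823, minus strand), had 248, 245, 156 and 0 in IL-33 libraries 1 to 4, against 0, 0, 93.7 and 0 in PBS libraries 5 to 8. It was present in 3 of 4 IL-33 libraries and 1 of 4 PBS libraries (means 162 ± 116 and 23.4 ± 46.8, log2 fold change 4.16 ± 2.47 SE, adjusted p = 0.374). The log2 fold change of H2-Aa equals that of Cd74 to 2 decimals, but its SE is larger and its 95% interval ran from −1.02 to 9.34. edgeR gave 2.80 (adjusted p = 0.620), and limma without IL-33 replicates 3 and 4 gave 6.31 (0.240).

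H2-Eb1, the β chain of I-E (chromosome 17, 34305867 to 34316674, plus strand), had 53.0, 0.85, 296 and 0 in IL-33 libraries 1 to 4, against 0, 0, 5.75 and 1.46 in PBS libraries 5 to 8. Only 2 IL-33 libraries stood above the PBS range (means 87.5 ± 141 and 1.80 ± 2.72, log2 fold change 2.70 in limma and 5.52 in edgeR, adjusted p = 0.524 and 0.349). Each of the 3 classical chains was uncalled in every alternative fitted. Summed over the 3, the classical chains had 521 ± 277 after IL-33 and 152 ± 135 after PBS, with 702, 608, 665 and 109.8 in IL-33 libraries 1 to 4, and 321, 183, 99.4 and 2.93 in PBS libraries 5 to 8. The library with the lowest IL-33 sum, replicate 4, was within the PBS range. Cd74 was 1.45 to 16.5 times this sum after IL-33 and 0.19 to 19.3 times after PBS, ranges that overlap. The ratio of 19.3 was that of PBS replicate 8, whose sum of 2.93 rests on 2 reads each of H2-Ab1 and H2-Eb1. In PBS libraries 5 to 7 the ratio was 0.19, 1.73 and 1.62.

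**Figure D2:**
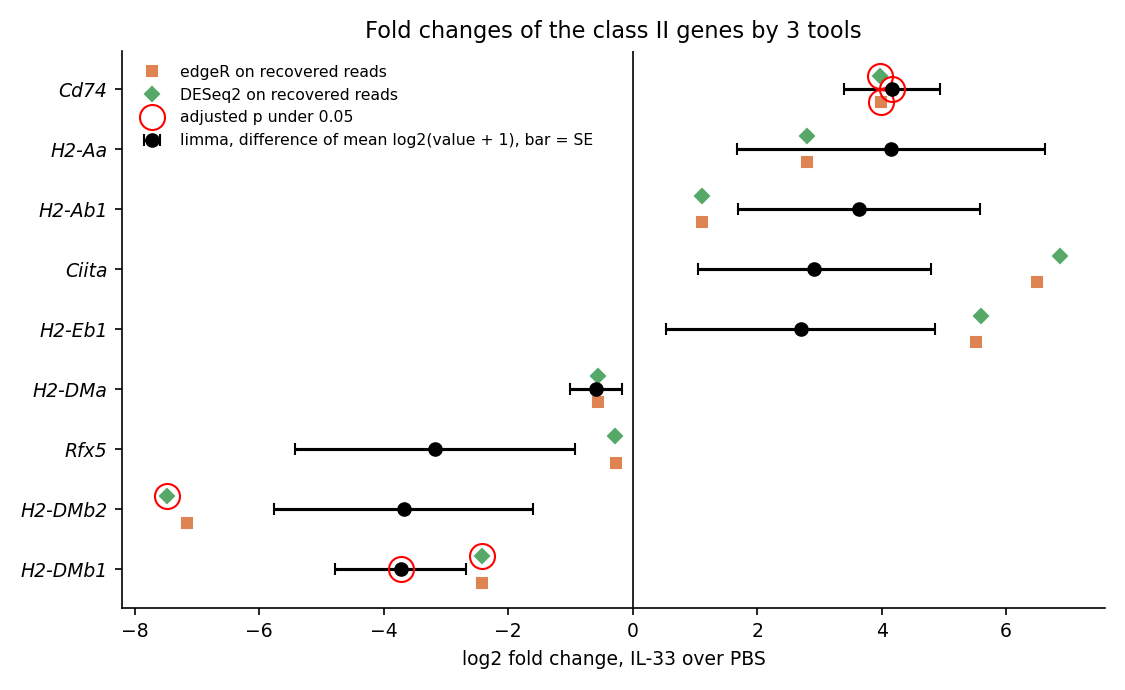
Log2 fold changes of the 9 genes, IL-33 over PBS (horizontal axis), by limma with SE (black), edgeR (orange squares) and DESeq2 (green diamonds); red circles mark an adjusted p under 0.05. Cd74 is called by all 3 tools, H2-DMb1 by limma and DESeq2, and H2-DMb2 by DESeq2.

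Of the chains of H2-DM, H2-DMb1 was called lower, and H2-DMa and H2-DMb2 were not called. H2-DMa, the α chain (chromosome 17, 34119541 to 34139101, plus strand), had 1981, 1100.0, 1135 and 1961 in IL-33 libraries 1 to 4, against 3002, 1896, 2328 and 1889 in PBS libraries 5 to 8. The groups overlapped, with 2 IL-33 libraries inside the PBS range (means 1544 ± 493 and 2279 ± 524, log2 fold change −0.59 ± 0.41 SE, 95% interval −1.46 to 0.28, adjusted p = 0.456). Part of an annotated exon of H2-DMa lies opposite Brd2, a chromatin reader gene on the other strand. Brd2 averaged 4343 in IL-33 libraries and 4515 in PBS libraries (log2 fold change −0.02). Whether the counting used the strand is not given in the sources used here, so reads from the shared stretch cannot be told apart.

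H2-DMb1, a β chain of H2-DM (chromosome 17, 34153072 to 34160230, plus strand), had 793, 277, 97.7 and 7.64 in IL-33 libraries 1 to 4, against 1329, 1379, 2192 and 1424 in PBS libraries 5 to 8. Every IL-33 library lay below every PBS library, and the IL-33 values rest on 763, 327, 99 and 8 reads. The means were 294 ± 351 after IL-33 and 1581 ± 409 after PBS (log2 fold change −3.72 ± 1.05 SE, 95% interval −5.93 to −1.52, adjusted p = 0.0424 in limma). edgeR gave −2.41 and an adjusted p of 0.116, and DESeq2 −2.43 and 0.0363. The call was kept in 11 of 21 alternatives. It was lost when IL-33 replicate 3 (adjusted p = 0.0721) or PBS replicate 5, 6, 7 or 8 (0.110, 0.125, 0.139 and 0.118) was left out. Without IL-33 replicates 3 and 4, the libraries with the fewest genes, the log2 fold change was −1.72 (adjusted p = 0.0812). Without replicate 4 alone it was −2.47 (adjusted p = 0.0189).

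The difference in H2-DMb1 was also estimated within each sex. Females averaged 535 after IL-33 and 1354 after PBS (log2 fold change −1.53, adjusted p = 0.662), and males 52.7 after IL-33 and 1808 after PBS (−5.92, adjusted p = 0.0459, within males). The difference between the sexes was 4.39 in limma (unadjusted p = 0.0310, adjusted p = 0.783) and 3.78 in edgeR (adjusted p = 0.580), so it did not pass. The IL-33 males are the 2 libraries with the fewest genes, and sex and gene number cannot be told apart within that group.

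The ratio of H2-DMa to H2-DMb1 was 2.499, 3.98, 11.6 and 257 in IL-33 libraries 1 to 4, against 2.26, 1.37, 1.06 and 1.33 in PBS libraries 5 to 8. The α chain was above the β chain in every library, and each IL-33 ratio was above each PBS ratio, by little in replicate 1. H2-DMb2, the other β chain (chromosome 17, 34143307 to 34151555, plus strand), had 1.04, 0, 0.99 and 0 in IL-33 libraries 1 to 4, against 53.3, 296, 5.75 and 0 in PBS libraries 5 to 8. The IL-33 values are 0 or 1 read a library, and the PBS male with 0 lay within their range. The 2 reads after IL-33 and 418 after PBS give a PBS level 178 times the IL-33 level (95% exact interval 49.0 to 1475, counting error only). limma did not call the difference (log2 fold change −3.68, adjusted p = 0.349), nor did edgeR (−7.16, 0.234), while DESeq2 did (−7.49, 0.0398).

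H2-DMb1 and H2-DMb2 are close paralogs, which bears on how reads are assigned. Of the 451 words of 50 bases in the last 500 bases of the H2-DMb1 transcript, 92 were also found in H2-DMb2 and in no other gene. For the last 500 bases of H2-DMb2, 62 of 451 were found in transcripts of other genes, 164 genes in all. These 62 are thus not words of the paralog alone, and the share found in H2-DMb1 was not counted. A read from a shared stretch could be counted for another gene that holds it, or left out. The separate levels of H2-DMb1 and H2-DMb2 are uncertain to that extent. Cd74, H2-Aa, H2-Ab1, H2-Eb1, H2-DMa, Ciita and Rfx5 had no such word in another gene.

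**Figure D3:**
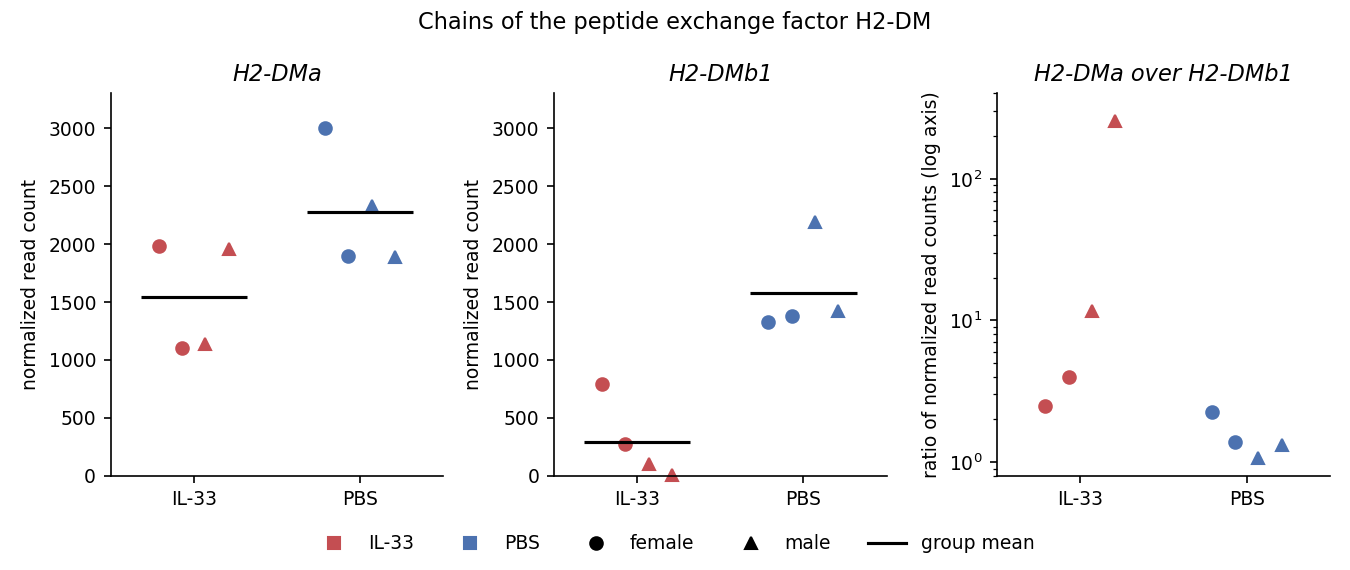
Normalised read counts of H2-DMa and H2-DMb1 and their ratio (right, log axis) in each library, IL-33 left of PBS, circles for females, triangles for males, bars for group means of the genes. H2-DMa overlaps between the groups, while H2-DMb1 is between 7.64 and 793 after IL-33 and between 1329 and 2192 after PBS.

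The transcription regulators of class II had low and uneven values and were not called. Ciita, the class II coactivator (chromosome 16, 10480059 to 10528418, plus strand), had 0, 0.85, 46.4 and 67.8 in IL-33 libraries 1 to 4, against 0, 0.85, 0 and 0 in PBS libraries 5 to 8. Its reads lay almost all in the IL-33 males, whose Cd74 was lower than that of the IL-33 females. The 119 reads after IL-33 and 1 read after PBS give a ratio of 140 (139.7 before rounding; 95% exact interval 24.6 to 5565, counting error only), but between libraries the difference did not pass (log2 fold change 2.92 and adjusted p = 0.411 in limma, 6.50 and 0.297 in edgeR). Dexi, which overlaps an exon of Ciita on the other strand, had 140, 65, 1028 and 417 reads in IL-33 libraries 1 to 4, and 731 to 1132 reads in each PBS library. The PBS libraries thus had Dexi reads and, together, 1 read of Ciita.

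Rfx5, a subunit of the X box binding complex (chromosome 3, 94954075 to 94961561, plus strand), had 133, 0, 0.99 and 0 in IL-33 libraries 1 to 4, against 39.8, 60.5, 13.1 and 49.1 in PBS libraries 5 to 8. Replicate 1 was above all PBS libraries, and the other 3 IL-33 libraries were below them (log2 fold change −3.18 ± 2.25 SE in limma and −0.27 in edgeR, adjusted p = 0.461 and 0.981). B230398E01Rik, which overlaps an exon of Rfx5 on the other strand, had 165 in IL-33 replicate 1 and 0 to 1.69 in the 7 other libraries. The high Rfx5 value and the high value of its antisense neighbour stood in the same library, and without knowledge of the strand their reads cannot be told apart.

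The order of levels also differed between the groups. After IL-33 it ran Cd74, H2-DMa, H2-DMb1, H2-Ab1, H2-Aa, H2-Eb1, Rfx5, Ciita and H2-DMb2. After PBS it ran H2-DMa, H2-DMb1, Cd74, H2-Ab1, H2-DMb2, Rfx5, H2-Aa, H2-Eb1 and Ciita. Only 1 step in each order separated neighbours whose ranges did not overlap: H2-DMa above H2-DMb1 after IL-33, and H2-DMb1 above Cd74 after PBS. All other neighbours overlapped. Cd74 took 33.2% to 60.6% of the summed value of the 9 genes in the IL-33 libraries and 1.27% to 7.67% in the PBS libraries. H2-DMa took 21.8% to 49.5% of it after IL-33 and 45.9% to 62.5% after PBS. The summed value itself was 2912 to 7108 after IL-33 and 3421 to 4806 after PBS, and overlapped.

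Of the 9 genes 6 lie within 249 kb of chromosome 17 (34092340 to 34341412), between H2-Oa and H2-Eb2, with 8 other protein-coding genes. limma called 1 of the 13 tested genes of this region, H2-DMb1 (lower), against 5.85% of all tested genes called in either direction. The 3 classical chains, at the far end from H2-Oa, had positive log2 fold changes (2.70 to 4.16), and the 3 H2-DM chains, near H2-Oa, negative ones (−3.72 to −0.59). None but that of H2-DMb1 passed. Between the 2 blocks lie Psmb9, Tap1, Psmb8 and Tap2, genes of class I peptide supply, with log2 fold changes of −1.68 to −0.23, and H2-Ob, with 0.43, none called. The median of the 13 genes was −0.59, against −0.40 for all tested genes.

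**Figure D4:**
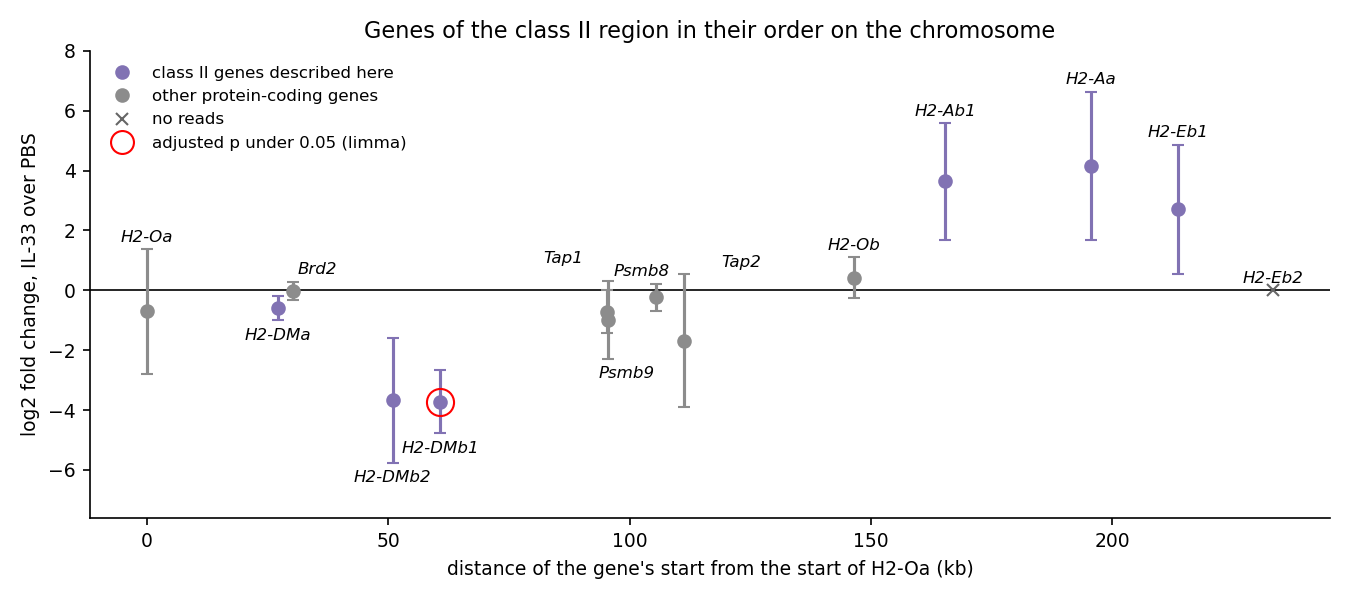
Log2 fold change, IL-33 over PBS, with SE (limma) of the 14 protein-coding genes from H2-Oa to H2-Eb2, by distance from the start of H2-Oa in kb. Purple marks the class II genes described here, grey the other genes, the cross a gene with no reads, and the red circle H2-DMb1, the 1 gene called.

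Partner genes of the pathway were counted in 6 lists and class I genes in a seventh. Together 6 of 72 tested genes were higher and 6 lower after IL-33, against 3.06% higher and 2.8% lower of all tested genes. Of the 47 list genes with a mean of at least 1000, 11 (23.4%) were called, against 19.3% of all tested genes at that level. Of the 25 below it, 1 was called. The median log2 fold change was −0.14 for other class II chains, −0.31 for transcription partners, 0.43 for the interferon-γ route and −0.37 for repression. It was −0.0010 for antigen processing, 0.58 for ubiquitination and turnover and −0.23 for class I, against −0.40 for all tested genes. Of the other class II chains, H2-Oa and H2-Ob, which form the H2-O inhibitor of H2-DM, neither was called (H2-Ob 676 ± 253 after IL-33 and 515 ± 235 after PBS, adjusted p = 0.737; H2-Oa 595 ± 774 and 514 ± 427, 0.874). H2-Ea-ps and H2-Eb2 had no reads. In the main fit limma called none of 12 transcription partners of Rfx5 and Ciita, including the coactivators Crebbp (log2 fold change −0.93, adjusted p = 0.134, but 0.0497 in DESeq2) and Ep300 (−0.23, 0.772). Of these partners, limma called 1 lower with quantile normalization and 1 without a variance trend, and DESeq2 called 2 lower.

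In the interferon-γ route to Ciita 1 of 9 tested genes was higher and 2 were lower. The kinase gene Jak2 had 2018 ± 764 after IL-33 and 582 ± 217 after PBS (log2 fold change 1.79, adjusted p = 0.0495), kept in 0 of 8 fits that leave out 1 library. The factor Irf2 had 1933 ± 656 after IL-33 and 5315 ± 993 after PBS (−1.50, adjusted p = 0.0122), and the receptor chain Ifngr1 7238 ± 2214 and 13213 ± 1645 (−0.91, adjusted p = 0.0351, kept in 2 of 8 fits that leave out 1 library). Ifng, the cytokine gene itself, had no reads in any library. Of 11 tested genes linked to class II repression 2 were lower and 0 higher by limma: Prdm1, which encodes the repressor Blimp-1, had 174 ± 197 after IL-33 and 1369 ± 317 after PBS (−5.19, adjusted p = 0.0345, kept in 3 of 8). The TGF-β receptor gene Tgfbr1 had 16147 ± 7550 after IL-33 and 33538 ± 3441 after PBS (−1.21, adjusted p = 0.0153, kept in 6 of 8). Without a variance trend limma called none of these 5 genes, nor Sppl2a, Ctsd, H2-D1 or Pdia3. edgeR did not call Prdm1 (−2.96, adjusted p = 0.126) or Ifngr1 (−0.87, 0.0810), and without IL-33 replicates 3 and 4 limma did not call Jak2 (1.67, 0.107).

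Of 16 genes that process the invariant chain and antigens 1 was higher and 1 lower. Sppl2a, an intramembrane protease that clears the last fragment of the invariant chain, had 14686 ± 4466 after IL-33 and 4425 ± 1470 after PBS (log2 fold change 1.73, adjusted p = 0.00105, kept in 8 of 8 fits that leave out 1 library). The lysosomal protease Ctsd was lower (−1.22, adjusted p = 0.0101, kept in 7 of 8), but not without IL-33 replicates 3 and 4 together (−0.75, adjusted p = 0.104). Ctss, the protease that cuts the invariant chain in mouse antigen-presenting cells, chosen after its values were seen, had 224187 ± 21924 after IL-33 and 225226 ± 20587 after PBS. Of 7 genes of class II ubiquitination and surface turnover 1 was higher, Cd83, which opposes the removal of class II from the surface, with 50903 ± 12059 after IL-33 and 3544 ± 1013 after PBS (3.85, adjusted p = 2.60e-09).

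Among 15 tested class I genes 3 were higher and 1 lower. H2-K1, a classical class I chain, had 76664 ± 46796 after IL-33 and 5727 ± 1120 after PBS (log2 fold change 3.60, adjusted p = 4.03e-08). H2-D1 had 17778 ± 7791 and 2953 ± 1978 (2.79, adjusted p = 3.26e-04), and H2-Q7 2236 ± 952 and 68.6 ± 116 (6.74, adjusted p = 0.00204, but 0.0684 without IL-33 replicates 3 and 4). Chains of class I are near-identical to one another, so that a read may be counted for another chain or left out. The folding enzyme gene Pdia3 was lower (−0.95, adjusted p = 0.0434, kept in 1 of 8 fits that leave out 1 library, and 0.0792 in edgeR). After IL-33 the 2 classical class I chains H2-K1 and H2-D1 thus passed, while the 3 classical class II chains did not. The sets stood at unlike levels: H2-K1 and H2-D1 lay in the band from 1000 up, where 19.3% of genes were called. H2-Ab1 lay in the band from 100 to 300 (2.02% called), and H2-Aa and H2-Eb1 under 100 (0.133% called). The log2 fold changes of the class II chains ran from 2.70 to 4.16. The difference between the 2 sets was not tested.

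**Figure D5:**
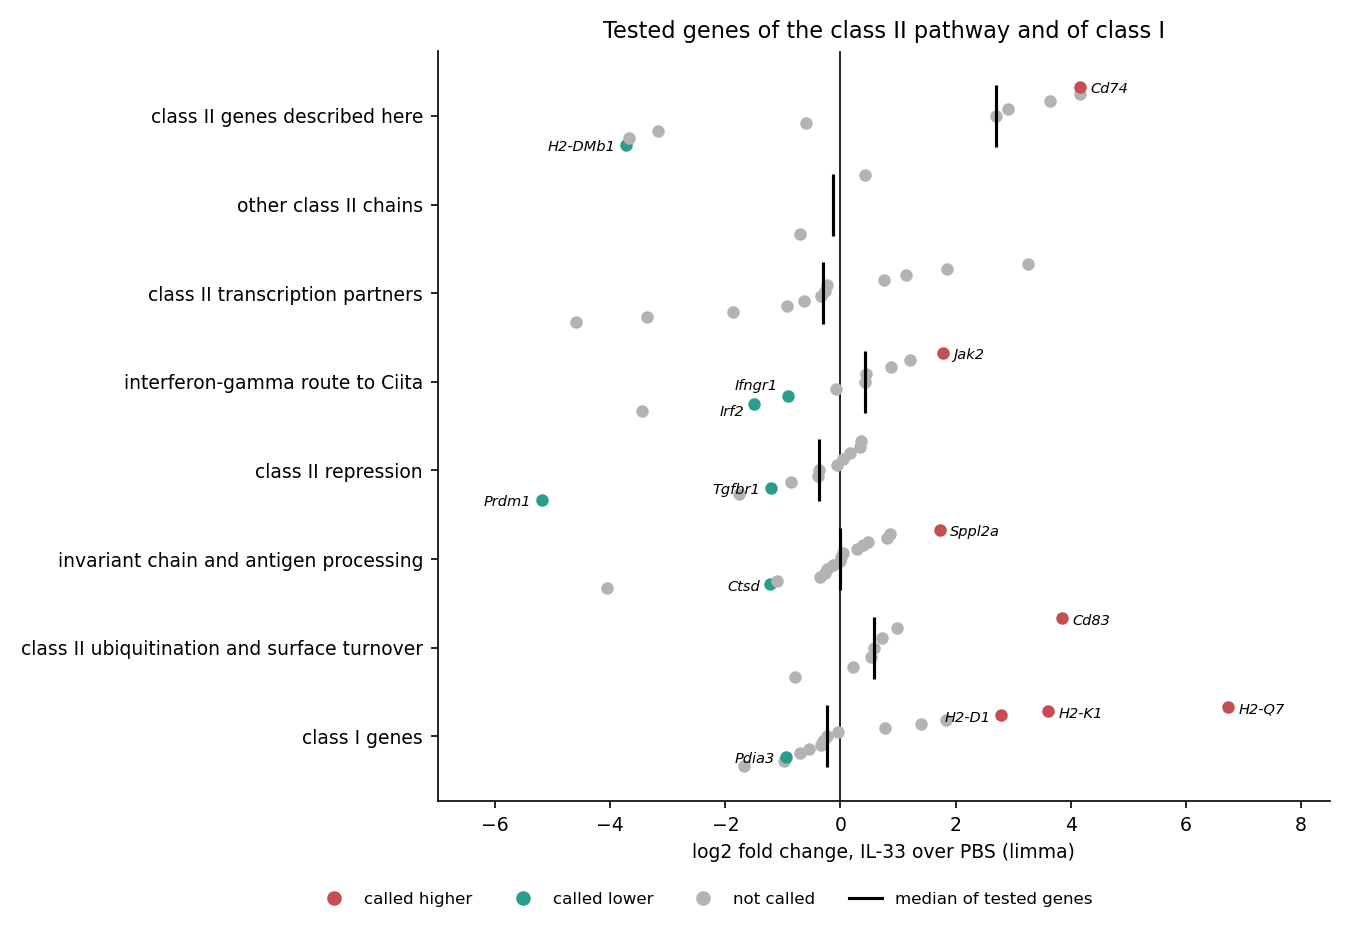
Log2 fold changes, IL-33 over PBS (limma), of the tested genes of each list, 1 point a gene, with called genes named in red (higher) or green (lower) and the list's median as a bar. Cd74, Jak2, Sppl2a, Cd83 and 3 class I genes are called higher, and H2-DMb1, Irf2, Ifngr1, Prdm1, Tgfbr1, Ctsd and Pdia3 lower.

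The 5 genes whose level followed that of Cd74 most closely over the 8 libraries, by Pearson r of log2(value + 1), were Ier3 (r = 0.981), Parp14 (0.981), P2rx1 (0.971), Eif3c (0.970) and Rhoc (0.969). The group difference is part of this likeness, and 139 of the tested genes had r of at least 0.9. No class II member was among them: the nearest, H2-Aa and H2-Ab1, had r of 0.591 and 0.576, and H2-DMa and H2-DMb1 had −0.599 and −0.586.

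Class II genes are abundant in dendritic cells, B cells and border macrophages, and the markers of these cells were set beside Cd74. Of 12 dendritic cell markers 4 (Clec9a, Cd209a, Dpp4 and Cd24a) were at 0 in all libraries, and Flt3 and Clec10a were at 0 in all IL-33 libraries. The summed dendritic cell list was 9265 to 15871 after IL-33 and 402 to 848 after PBS. Ccr7, a chemokine receptor gene, made up most of it, with 10028 ± 1960 after IL-33 and 20.7 ± 2.37 after PBS (log2 fold change 8.84, adjusted p = 4.04e-08). Batf3 had 1107 ± 783 after IL-33 and 271 ± 109 after PBS (adjusted p = 0.209). Of the 10 B cell markers Ms4a1, Cd79a and Pax5 were at 0 in all libraries. Their sum was 6617 to 12819 after IL-33 and 7219 to 11233 after PBS, with Ighm at 4498 ± 1384 and 7287 ± 1374. Cd79b was higher (3210 ± 1337 after IL-33 and 493 ± 262 after PBS, adjusted p = 0.00297).

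Border macrophage markers were lower in sum after IL-33, at 2276 to 2839, against 4282 to 7877 after PBS. Most of this was Stab1 (2340 ± 284 after IL-33 and 5750 ± 1560 after PBS, adjusted p = 0.0224), while Mrc1 had 42.7 ± 77.7 and 139.6 ± 111 and 3 of the 10 markers were at 0 throughout. Monocyte and neutrophil markers summed to 107 to 541 after IL-33 and 19.6 to 162 after PBS, with 5 of 10 at 0 in all libraries and S100a4 and Ccr2 the most abundant. T and NK cell markers were at 0 in all libraries for 6 of 10, and the most abundant, Klrb1c and Trac, had 671 and 66.9 in IL-33 replicate 4 and at most 1 read in any other library. Of the markers of neurons, astrocytes, oligodendrocytes and endothelium, the myelin gene Mbp had 1790 ± 896 after IL-33 and 642 ± 169 after PBS (adjusted p = 0.167). Microglia markers summed to 361185 to 557136 after IL-33 and 557627 to 759808 after PBS, with Cx3cr1 and Csf1r the most abundant. Of the 12, limma called 6 lower, against 2.8% of all tested genes. Of genes with a mean of at least 1000, 19.3% were called in either direction. The part of the dendritic cell list and of Cd79b in the rise of Cd74 was not tested.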

How the data were processed

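The deposited table holds 1 signal per gene and library, named normalized counts per the file headers. Dividing each library by its smallest value above 0 gave whole reads for 100% of values (within 0.01 read), so each deposited column is a read count scaled by a single factor. Tools listed, per the submitters' processing notes and without their roles, are STAR 2.5.4b, DESeq2 1.24.0, HTSeq 0.9.0 and FastQC, and the builds are GRCm38 and mm10; libraries were QuantSeq 3′ FWD, per the labels' protocols. The treatment of strand, multimapping and duplicates is not given in the sources used here. Reads are not independent molecules, so intervals from reads cover counting error only.

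IL-33 was compared with PBS on log2(value + 1) with limma 3.58.1 (R 4.3.3, variance trend), two-sided, over genes with a mean of at least 10, with Benjamini-Hochberg adjustment over all 13877 and a threshold of 0.05. Alternatives were pseudocounts, filters, scalings, weights, sex as covariate, DESeq2 1.42.0 and the quasi-likelihood test of edgeR 4.0.16 on recovered reads, and libraries left out. Code was tested on simulated data. Positions are from GENCODE M21. Members and lists were chosen with earlier results of these data known. Named genes were all members, up to 4 called genes of each pathway list with the largest change (2 abundant ones where none was called), 2 abundant markers of each other cell type, and the 5 genes most like Cd74; others were chosen after their values were seen. A marker that this rule names is not reported here.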

Additional observations from a re-analysis of the deposited data

Results flagged for a closer look

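Of 18 groups of 4 libraries (9 genes in 2 groups), 4 held 1 library whose gap to the others exceeded Dixon's 95% limit (chance flags about 1 in 20 groups of values that can vary freely). For H2-Aa and Ciita after PBS the other 3 libraries were at 0, which by itself sets the gap to the whole range, so that this chance rate does not apply to them. For Rfx5 after IL-33 the other 3 libraries held 0 or 1 read, so the rate cannot be taken to apply there either. In IL-33 replicate 1, Rfx5 was at 133, with 0.99 as the next highest value of its group. In PBS replicate 7, H2-Aa was at 93.7, with the other PBS libraries at 0. In the same library H2-DMb1 was at 2192, with 1329 to 1424 in the other PBS libraries. In PBS replicate 6, Ciita was at 0.85, which is 1 read. No member's treatment effect differed between the sexes past the threshold in limma (adjusted p of 0.783 to 0.959) or edgeR. H2-DMb1 had an unadjusted p of 0.0310 in limma and 0.00935 in edgeR, and H2-Ab1 one of 0.0428 and 0.0544.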

How the results depend on the processing

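Over the 180 alternative fits of the 9 genes, 169 kept the call status and direction, 10 ended the call of H2-DMb1, 1 added a call (H2-DMb2 in DESeq2), and 0 turned the direction. The number of members called higher was 1 throughout. The number called lower was 0 without a low-value filter, without a variance trend, in edgeR, at an adjusted p under 0.01 and without IL-33 replicates 3 and 4 together, 2 in DESeq2, and 0 to 1 when 1 library was left out. In the pathway lists 6 genes were called higher and 6 lower; limma without a variance trend gave 3 higher and 1 lower. The lower count was 1 without a filter, 3 in edgeR, 0 at an adjusted p under 0.01 and 0 to 6 with 1 library left out (0 without PBS replicate 6, 2 without replicate 5, and 3 without IL-33 replicate 2 or PBS replicate 7 or 8). H2-Oa, never called, turned from −0.70 to 0.49 with library weights, 0.23 in edgeR, 0.21 in DESeq2, 0.61 without IL-33 replicates 3 and 4, and −2.61 to 1.52 with 1 library left out; the cause was not tested. The median over all genes shifted by 0.29 under quantile normalization, 0.32 in edgeR and 0.31 in DESeq2. Of 294 counts of single lists, 61 moved by over 1.5 times. No paired analysis was possible because the groups share no replicate numbers. The 6 members with means under 300 each had a library at 0, and a 0 did not always stand in a shallower library: H2-Aa had 0 reads in IL-33 replicate 4 (20179566 reads in all) and 239 in replicate 1 (16827343).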
